A study of Mus musculus with 56 samples.

Results

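Hearts of mice fed in the light phase (daytime-restricted feeding, DRF) were compared with hearts of mice fed in the dark phase (nighttime-restricted feeding, NRF) at zeitgeber time 16 (ZT16), 4 h after lights off. At this hour the NRF mice were in their feeding phase and the DRF mice had entered their fast. The libraries were chosen by their labels: 4 carry the regimen DRF and the time ZT16 and 4 carry NRF and ZT16, 8 of the 56 heart libraries of the series. All mice were female C57BL/6J, an inbred laboratory strain, kept specific pathogen-free and 9 weeks old at collection. Both groups had 7 days of 12 h light and 12 h dark with chow at all hours, followed by 7 days of DRF or NRF, and the labels name no allele or drug. NRF was the reference regimen, close to the hours at which mice eat when food is always present. The tissue is labelled heart, with no chamber named, and polyA RNA was sequenced. The labels do not say whether the replicates of a group were separate animals, so the p-values measure the spread between these samples, which may in part be technical. Of 22864 genes listed, 13869 averaged 1 TPM or more across all 56 libraries and entered the test.

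The heart burns mainly fatty acids, and it shifts between fatty acids, glucose and ketone bodies with the supply in the blood. After a meal insulin favours glucose uptake, glycogen storage and protein synthesis, and holds the FOXO transcription factors out of the nucleus. In a fast circulating fatty acids rise, PPAR receptors induce genes that limit glucose oxidation, and FOXO factors induce genes of protein breakdown and energy sparing. The cardiac clock runs beside this rhythm: CLOCK and BMAL1 bind E-boxes and induce their own repressors, the period and cryptochrome genes, so that the transcripts of the clock rise and fall once a day.

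The 8 libraries held 37.2 to 53.4 M reads. Levels are given as TPM, which are reads per base of exon scaled to a common sum in each library and can be compared between genes. Summed cardiomyocyte markers lay between 40484 and 43024 TPM in the 8 libraries and all 8 of these markers were present. Summed atrial markers ranged more widely, with 2039, 655, 658 and 2094 TPM in DRF replicates 1 to 4 and 669, 4376, 250 and 261 TPM in NRF replicates 1 to 4. Bmp10, a growth factor of atrial muscle, was above 1 TPM in DRF replicates 1 and 4 and in NRF replicate 2. Summed smooth muscle and pericyte markers were 601 to 655 TPM under DRF and 676 to 824 TPM under NRF (two-sided exact permutation test over 70 arrangements, p = 0.0286, the smallest that 4 against 4 can give, and 0.457 adjusted over 16 library measures). Rgs5 and Acta2 made up most of that sum, and of its 7 markers 5 had a negative log2 difference, with a median of -0.14 against -0.097 for all tested genes and of -0.03 after median-of-ratios scaling, none of them called. Summed red blood cell markers also varied widely, with 13791, 5939, 46804 and 6584.5 TPM in DRF replicates 1 to 4 and 32209, 3273, 4577 and 13782 TPM in NRF replicates 1 to 4. In tissue RNA, fewer cells of a type cannot be told apart from less RNA per cell.

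At ZT16 DRF hearts held more RNA of the fasting genes Angptl4, Pdk4 and Txnip and less of the glycogen regulator Ppp1r3b, of 4 antioxidant targets of NRF2 and of the potassium channel gene Kcnh2. The calls of Angptl4 and Pdk4 depended on single libraries, as given below. In limma's moderated test across all tested genes, 962 differed at an adjusted p (Benjamini-Hochberg) under 0.05, 6.94% of those tested. Of these, 92 were higher under DRF (0.663%) and 870 lower (6.27%). An unadjusted p under 0.05 was reached by 3366 genes. The median log2 difference over all tested genes was -0.097, and the excess of lower calls moved with the scaling. After the TPM of each library were rescaled by median of ratios, the median was -0.002 and 290 genes were higher (2.09%) and 321 lower (2.31%). The 92 higher genes and the 321 lower genes passed under both scalings, 413 in all, and no gene was called in opposite directions. The other 549 lower genes passed with TPM alone. Differences beyond 2-fold were few, 5 among the higher and 8 among the lower genes. The values of the 4 DRF libraries all lay above the 4 NRF libraries in 244 tested genes (1.76%) and all below in 2467 (17.8%). Among the called genes, 79 of the 92 higher and 795 of the 870 lower did not overlap. The medians of the 92 and the 321 genes were 0.48 and -0.41.

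**Figure D1:**
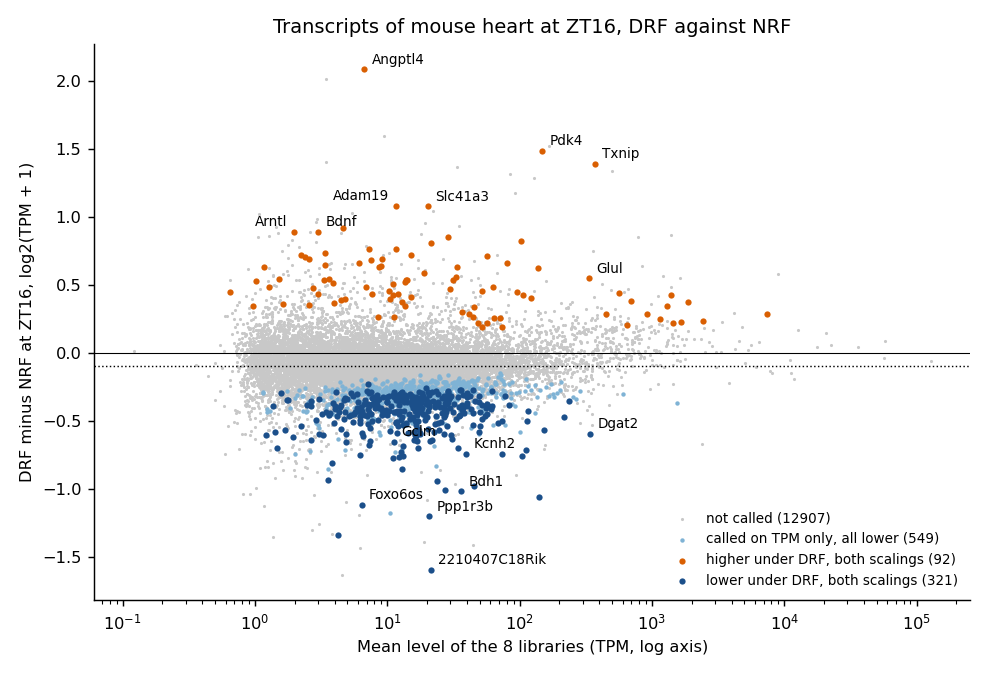
Mean level of each of the 13869 tested genes over the 8 ZT16 libraries (horizontal, TPM on a log axis) against the log2 difference DRF minus NRF (vertical, 1 point per gene). Orange marks the 92 genes higher and dark blue the 321 genes lower under both scalings, light blue the 549 lower with TPM alone, and the dotted line the median of all genes at -0.097. The cloud sits slightly below 0, and few called genes lie beyond 1 in either direction.

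The count depended on single libraries. With DRF replicate 4 left out 227 genes were called, 43 of the 92 higher genes and 165 of the 321 lower genes among them. With DRF replicate 3 left out the count was 516, with NRF replicate 2 it was 417 and with NRF replicate 3 it was 454. Without the 3 libraries in which Bmp10 was above 1 TPM, which leaves 2 DRF and 3 NRF libraries, 78 genes were called, 19 of the 92 higher and 53 of the 321 lower genes among them. The median log2 differences of the 92 and the 321 genes were then 0.51 and -0.39, against 0.48 and -0.41 with all libraries. These genes were chosen with all libraries, so their medians are a description. Of the 28 genes with the largest differences, 14 in each direction, 18 stayed called with any 1 of the 8 libraries left out. Of all 99 called genes named by rule 35 did so, and the other 64 lost the call without at least 1 library, reaching adjusted p of 0.0576 to 0.341. Leaving out DRF replicates 1 to 4 ended 5, 39, 41 and 61 of the 99 calls, and leaving out NRF replicates 1 to 4 ended 34, 51, 47 and 29. A call below is said to hold where no single library ended it, and beside those the calls of Ankrd23, Mfsd4b1, Tmem171, Cited4, Foxo6, Foxo6os, Slc25a29, Ppargc1a, Srsf1, Sqstm1, Fdft1, Dgat2, Elovl5 and Eif4a1 also did.

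Among the most raised genes were several that fasting is known to induce in the heart. Angptl4, a secreted inhibitor of lipoprotein lipase (chr17:33773750-33781830 in mm10), measured 7.9, 17.9, 8.397 and 12.04 TPM in DRF replicates 1 to 4 and 2.39, 2.23, 1.49 and 1.297 TPM in NRF replicates 1 to 4. Every DRF value exceeded every NRF value by a wide margin, with means of 11.5 ± 4.59 against 1.85 ± 0.5398 TPM (SD, n = 4; log2 difference 2.09, SE 0.58, adjusted p = 0.0224). Pdk4, the kinase that switches off pyruvate dehydrogenase and so spares glucose (chr6:5483351-5496309), measured 200, 289.6, 159 and 226 TPM under DRF and 105, 86.1, 48.7 and 73.6 TPM under NRF (log2 difference 1.49, SE 0.46, adjusted p = 0.0389). Both genes were spread widely within groups. Their calls ended when any of 4 libraries (DRF replicates 2 and 4, NRF replicates 3 and 4) was left out for Angptl4, with adjusted p up to 0.0895, and when any of 6 was left out for Pdk4, with adjusted p up to 0.138. Txnip, which restrains glucose uptake and binds thioredoxin (chr3:96557957-96561883), measured 551, 612, 445 and 529 TPM under DRF and 175, 223, 166 and 252 TPM under NRF. Its groups were far apart (log2 difference 1.39, SE 0.30, adjusted p = 0.00379) and the call held with any library left out, at adjusted p up to 0.0192. The antisense gene Gm15441 overlaps Txnip, and since strand use in the counting is not given, reads of the pair cannot be told apart.

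The best supported of the higher genes were less familiar ones. Adam19, a membrane metalloprotease that acts in heart valve and septum development (chr11:46055992-46147343), measured 14.2, 18.7, 17.4 and 14.9 TPM under DRF and 6.04, 7.61, 7.703 and 7.21 TPM under NRF (log2 difference 1.08, SE 0.16, adjusted p = 4.92e-05). Slc41a3, of the magnesium transporter family (chr6:90604725-90646412), measured 31.5, 26.4, 26.6 and 27.4 TPM under DRF and 11.2, 11.1, 11.7 and 17.3 TPM under NRF, where NRF replicate 4 stood above the other three (log2 difference 1.08, SE 0.16, adjusted p = 4.63e-05). In both the difference was over 2-fold and the call held without any 1 library, with adjusted p up to 0.00071 for Adam19 and 0.000644 for Slc41a3. Bdnf, the brain-derived neurotrophic factor, which heart muscle also makes, was low in both groups, with 3.66, 4.195, 5.09 and 3.82 TPM under DRF and 1.98, 1.86, 2.03 and 1.31 TPM under NRF (log2 difference 0.89, SE 0.17, adjusted p = 0.00132). Retreg1, a receptor for autophagy of the endoplasmic reticulum, measured 134, 139.6, 131 and 121 TPM under DRF and 69.04, 72.8, 79.8 and 72.95 TPM under NRF (log2 difference 0.83, SE 0.16, adjusted p = 0.00157). Neither gene's groups overlapped, and both calls held with any library left out. Tfrc, the transferrin receptor that brings iron into the cell, measured 39.6, 27.8, 47.1 and 36.1 TPM under DRF and 18.5, 19.8, 21.2 and 20.7 TPM under NRF (log2 difference 0.85, SE 0.26, adjusted p = 0.0357), and 7 of the 8 single libraries ended its call (adjusted p up to 0.115). Also among the 14 were Tmem171 (0.92, adjusted p = 0.00401), the clock gene Arntl, the titin-binding ankyrin repeat gene Ankrd23 (0.77, adjusted p = 0.00214), the stromelysin gene Mmp3 (0.76, adjusted p = 0.0405) and Mfsd4b1 (0.74, adjusted p = 0.000166), whose log2 differences are given in brackets. Mmp3 lost its call without any of 7 libraries, with adjusted p up to 0.225.

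Among the called lower genes whose groups did not overlap, an uncharacterised gene and a regulator of glycogen had the largest log2 differences. 2210407C18Rik (chr11:58608204-58616075) measured 11.8, 8.59, 11.8 and 7.88 TPM under DRF and 43.2, 38.1, 23.9 and 26.01 TPM under NRF, so the highest DRF value was below the lowest NRF value (log2 difference -1.60, SE 0.29, adjusted p = 0.000912). Ppp1r3b, which brings protein phosphatase 1 to glycogen and thereby favours its synthesis (chr8:35375739-35388139), measured 12.1, 15.2, 11.7 and 9.54 TPM under DRF and 32.5, 34.1, 23.9 and 26.2 TPM under NRF (log2 difference -1.20, SE 0.26, adjusted p = 0.00313). Both calls held with any library left out. Ppp1r3b, like Bdh1, Gclm, Txnrd1, Ppargc1a, Ciart and Dbp below, overlaps other listed genes, whose reads may be shared. Bdh1, which oxidises the ketone body 3-hydroxybutyrate, measured 36.97, 23.7, 18.9 and 17.1 TPM under DRF and 55.4, 39.98, 48.6 and 48.4 TPM under NRF (log2 difference -1.02, SE 0.27, adjusted p = 0.0159), and its call ended without DRF replicate 3 or without DRF replicate 4 (adjusted p up to 0.111). The transcription factor gene Foxo6 and its antisense RNA Foxo6os were both lower. Foxo6 measured 2.38, 1.55, 2.79 and 1.84 TPM under DRF and 4.59, 4.78, 5.49 and 4.94 TPM under NRF (log2 difference -0.94, SE 0.19, adjusted p = 0.00214), and Foxo6os measured 4.92, 2.73, 4.79 and 2.59 TPM and 8.93, 10.3, 9.66 and 7.52 TPM (log2 difference -1.12, SE 0.19, adjusted p = 0.000367). Both stood lower in every DRF library than in any NRF library. Cited4, a partner of the coactivators CBP and p300, measured 29.5, 31.5, 29.04 and 29.8 TPM under DRF and 55.8, 66.3, 55.1 and 63.3 TPM under NRF (log2 difference -0.98, SE 0.24, adjusted p = 0.0118). Slc25a29, a mitochondrial carrier of basic amino acids, measured 8.61, 7.57, 7.57 and 7.98 TPM under DRF and 15.5, 13.5, 14.2 and 13.6 TPM under NRF (log2 difference -0.77, SE 0.12, adjusted p = 0.00018). The groups of Cited4 and of Slc25a29 stood clear of each other in every replicate. Inka2 (-1.004, adjusted p = 0.00373), the retroviral restriction gene Fv1 (-0.94, adjusted p = 0.000367), the inositol phosphate kinase Ip6k3 (-0.76, adjusted p = 0.00233) and Gm14327 (-0.85, adjusted p = 0.00379), which overlaps Zfp972, also kept their calls without any library. The Nogo receptor gene Rtn4r (-1.18) passed with TPM at adjusted p = 0.0235 but not after median-of-ratios scaling, at adjusted p = 0.0519, and the same held for 4632404M16Rik, which lies in an intron of Casq2 (-0.85, adjusted p = 0.0415 and 0.074), and for Gm45819, which overlaps 1600010M07Rik (-0.83, adjusted p = 0.0389 and 0.0881). Without single libraries the adjusted p of these 3 genes reached up to 0.105, 0.175 and 0.181.

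**Figure D2:**
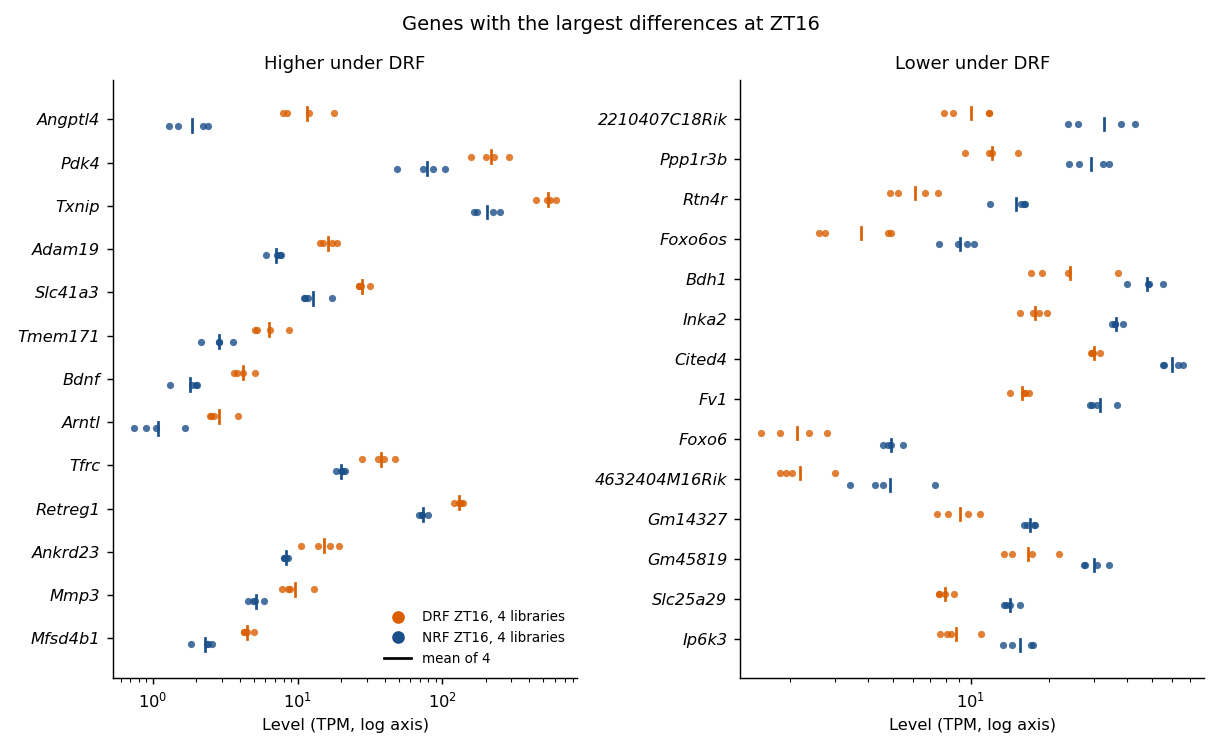
Genes most raised (13 of the 14 named by rule) and the 14 most lowered under DRF at ZT16, with 1 dot per library (orange DRF, blue NRF, n = 4 each), a bar at each group mean and TPM on a log axis. The DRF dots lie to the right of the NRF dots in the left panel and to the left of them in the right panel, without overlap, which the choice of these genes required. Angptl4 and 2210407C18Rik have the largest log2 differences, 2.09 and -1.60.

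The 250 bases before the RefSeq start are shown for 5 of these genes and for the FOXO target Trim63 and the clock gene Ciart, described next. They were searched for known binding letters of the clock, of FOXO factors and of cyclic AMP response factors (build GRCm38.p6, 5′ to 3′ on the gene's strand, sequences from RefSeq). Windows that hold a match were picked for display, and Pdk4 was added without a match. How many of the shown windows hold a match is therefore no result. Capitals mark each match on either strand to the E-box CACGTG, the FOXO core TGTTTAC or its complement, or the cyclic AMP response element TGACGTCA. Txnip (chr3:96557707-96557956, plus strand) and Trim63 (chr4:134314870-134315119, plus strand), an atrophy gene, each held 1 FOXO core. Adam19 (chr11:46054252-46054501, plus strand, the first of its 3 starts) held an E-box and a FOXO core, and Slc41a3 (chr6:90618996-90619245, plus strand) held an E-box. The other Adam19 windows held none of these letters, and that at 46055734-46055983 lies just before the gene span given above. The windows of Slc41a3 and of 2210407C18Rik lie inside the gene spans given above. Ciart (chr3:95882229-95882478, minus strand), a clock repressor, held 3 E-boxes, 2210407C18Rik (chr11:58613493-58613742, minus strand) a cyclic AMP response element, and Pdk4 (chr6:5496279-5496528, minus strand) held none of these letters.
Txnip: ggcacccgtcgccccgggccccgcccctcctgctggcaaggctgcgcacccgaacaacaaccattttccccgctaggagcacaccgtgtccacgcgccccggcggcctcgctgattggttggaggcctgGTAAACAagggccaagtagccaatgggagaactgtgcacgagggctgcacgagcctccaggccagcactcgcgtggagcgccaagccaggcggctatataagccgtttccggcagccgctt
Trim63: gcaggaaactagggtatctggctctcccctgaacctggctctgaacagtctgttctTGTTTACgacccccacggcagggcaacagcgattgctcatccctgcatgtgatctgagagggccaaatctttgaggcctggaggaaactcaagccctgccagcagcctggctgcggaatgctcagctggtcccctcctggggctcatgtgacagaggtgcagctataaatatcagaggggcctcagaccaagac
Adam19: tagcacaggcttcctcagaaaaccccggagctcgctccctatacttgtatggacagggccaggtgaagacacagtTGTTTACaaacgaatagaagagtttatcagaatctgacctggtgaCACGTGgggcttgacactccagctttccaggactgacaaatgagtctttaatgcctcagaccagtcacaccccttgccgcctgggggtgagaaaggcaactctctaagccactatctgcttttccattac
Slc41a3: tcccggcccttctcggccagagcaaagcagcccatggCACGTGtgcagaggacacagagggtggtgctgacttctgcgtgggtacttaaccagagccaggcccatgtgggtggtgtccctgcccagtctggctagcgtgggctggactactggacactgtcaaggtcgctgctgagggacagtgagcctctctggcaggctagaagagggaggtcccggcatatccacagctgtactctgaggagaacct
Ciart: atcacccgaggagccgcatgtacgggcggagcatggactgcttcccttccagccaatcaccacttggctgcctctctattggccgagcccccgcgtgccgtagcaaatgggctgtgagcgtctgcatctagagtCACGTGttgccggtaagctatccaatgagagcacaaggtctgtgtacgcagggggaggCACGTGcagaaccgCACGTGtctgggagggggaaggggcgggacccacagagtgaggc
2210407C18Rik: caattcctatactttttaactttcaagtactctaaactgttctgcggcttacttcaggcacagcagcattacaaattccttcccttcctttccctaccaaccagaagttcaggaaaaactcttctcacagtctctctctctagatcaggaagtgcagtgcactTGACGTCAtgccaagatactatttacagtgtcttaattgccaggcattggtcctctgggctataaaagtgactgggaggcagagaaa
Pdk4: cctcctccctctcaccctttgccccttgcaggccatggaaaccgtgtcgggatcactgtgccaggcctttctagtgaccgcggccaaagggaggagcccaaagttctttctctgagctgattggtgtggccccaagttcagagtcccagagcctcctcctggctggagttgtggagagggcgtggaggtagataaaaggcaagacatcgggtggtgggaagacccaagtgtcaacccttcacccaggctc
The E-box, a palindrome, stood in 6.02% of 32851 RefSeq starts, in 10 of 91 starts of the higher genes (11.0%, 64 genes matched) and in 20 of 331 starts of the 321 lower genes (6.04%, 247 genes matched). The FOXO core, searched on both strands, stood in 3.17% of all starts, in 5 starts of the higher genes (5.49%) and in 5 of the lower genes (1.51%). The cyclic AMP response element, a palindrome, stood in 1.55% of all starts, 3.3% of the higher and 1.81% of the lower. The paired heat shock unit GAANNTTC stood in 6.69%, 5.49% and 2.42%, the ROR element TAGGTCA in 2.23%, 2.2% and 2.11%, and the D-box TTATGTAA in 0.819%, 0% and 0.604%. Adjacent motifs can share letters, as where a D-box runs into a FOXO core. A match is a description of these windows and not a site of binding.

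Genes of fat use were called in small numbers and in both directions at ZT16. Of 21 tested genes of fatty acid uptake and lipid droplets, Angptl4 was higher and 1 was lower (9.52% called, against 6.94% of all tested genes), and the median log2 difference was -0.08. The lower gene was Dgat2, which makes triglyceride for storage, with 339, 291, 244 and 223 TPM under DRF and 413, 433, 403 and 387 TPM under NRF (log2 difference -0.59, SE 0.11, adjusted p = 0.00168). Lpl, the lipase that Angptl4 inhibits, measured 958, 880, 772 and 720 TPM and 905, 888, 965 and 887 TPM (-0.14, adjusted p = 0.385), and the fatty acid translocase Cd36 had a log2 difference of -0.03, adjusted p = 0.86. G0s2, an inhibitor of triglyceride breakdown, measured 125, 116, 113 and 114 TPM under DRF and 234, 225, 132 and 178 TPM under NRF (-0.68, adjusted p = 0.101). Of 24 genes of mitochondrial fatty acid oxidation none was higher and 2 were lower (8.33%), Cpt2 (-0.32, adjusted p = 0.0389) and Acad11 (-0.28, adjusted p = 0.0277), with a list median of -0.01. After median-of-ratios scaling neither was called and 1 gene of the list was higher. Of 13 peroxisomal genes 3 were lower (23.1%, against 6.27% of all tested genes), among them the catalase gene Cat (-0.32, adjusted p = 0.0184) and the transporter gene Abcd3 (-0.27, adjusted p = 0.045), and none passed after rescaling. Of 6 genes of ketone body metabolism 4 were called (66.7%), 1 higher and 3 lower. The lower ones were Bdh1, the transporter Slc16a1 (-0.44, adjusted p = 0.0133) and Oxct1 (-0.30, adjusted p = 0.0235), which activates ketone bodies for oxidation. After rescaling 1 higher gene and Bdh1 passed, and the Slc16a1 call ended without DRF replicate 4 (adjusted p = 0.113).

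Among genes of glucose use the lower calls all fell on glycogen regulators. Of 31 genes of glucose use, Pdk4 and the muscle enolase Eno3 (0.23, adjusted p = 0.0383) were higher, and 3 glycogen-targeting subunits of protein phosphatase 1 were lower. The share called was 16.1%, against 0.663% higher and 6.27% lower among all tested genes. The lower genes were Ppp1r3b, the muscle subunit Ppp1r3a with 54.1, 44.8, 44.2 and 39.3 TPM under DRF and 69.97, 64.3, 59.2 and 55.2 TPM under NRF (log2 difference -0.44, SE 0.12, adjusted p = 0.0224), and Ppp1r3d with 10.96, 10.5, 9.57 and 9.603 TPM and 12.99, 14.2, 11.6 and 12.6 TPM (log2 difference -0.31, SE 0.09, adjusted p = 0.0342). A 4th subunit, Ppp1r3c, did not pass (0.10, adjusted p = 0.741), nor did the glycogen synthase Gys1 (-0.02, adjusted p = 0.915). The insulin-regulated glucose transporter Slc2a4 measured 245, 201, 192 and 189 TPM under DRF and 251, 256, 242 and 247 TPM under NRF, with DRF replicate 1 inside the NRF range (-0.28, adjusted p = 0.0772). The other pyruvate dehydrogenase kinases had log2 differences of -0.07 for Pdk1 (adjusted p = 0.522), -0.004 for Pdk2 (adjusted p = 0.978) and -0.29 for Pdk3 (adjusted p = 0.195). After rescaling 8 genes of the list were higher, against 2.09% of all tested genes, and only Ppp1r3b was lower, so the calls of Ppp1r3a and Ppp1r3d rest on the TPM scale.

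Of 24 tested genes of insulin signalling and of the response to insulin or FOXO factors, 4 were higher, against 0.663% of all tested genes, and none lower. After rescaling 5 were higher, against 2.09%, and none lower. The log2 differences of the list were positive in 13 genes and negative in 11, with a median of 0.06. Beside Txnip these were the ubiquitin ligase Trim63 (MuRF1), with 178, 162, 171 and 154 TPM under DRF and 91.5, 100.4, 124 and 116 TPM under NRF (log2 difference 0.63, SE 0.13, adjusted p = 0.00228), the p300 partner Cited2, with 52.04, 42.6, 38.6 and 32.9 TPM and 25.6, 30.04, 24.3 and 24.7 TPM (log2 difference 0.63, SE 0.16, adjusted p = 0.0128), and the stress sensor Sesn1, with 126, 112, 110.3 and 92.9 TPM and 83.96, 92.6, 75.7 and 69.4 TPM (log2 difference 0.45, SE 0.10, adjusted p = 0.00504). The groups did not overlap in any of the 3 and the calls held with any library left out. Fbxo32, the other atrophy ligase, measured 48.9, 41.8, 43.1 and 39.1 TPM under DRF and 22.1, 29.4, 36.9 and 28.4 TPM under NRF, also without overlap, but did not pass (log2 difference 0.57, SE 0.22, adjusted p = 0.0974). Of 20 genes of autophagy and lysosomes none was higher and 2 were lower (10%, against 6.27% of all tested genes), the cargo receptor Sqstm1 (-0.35, adjusted p = 0.00528) and the lysosomal regulator Tfeb (-0.27, adjusted p = 0.038). Among 18 PPAR receptors and cofactors (22.2% called, against 6.94%), the coactivator Ppargc1a was higher, with 42.2, 42.4, 42.1 and 33.1 TPM under DRF and 25.4, 30.1, 25.3 and 26.2 TPM under NRF (log2 difference 0.56, SE 0.13, adjusted p = 0.00571). DRF replicate 4 stood below the other three there but above every NRF library. The lower genes were 3, among them the corepressor Ncor1 (-0.27, adjusted p = 0.0236) and the shared partner Rxra (-0.23, adjusted p = 0.029), neither of which passed after rescaling, and Ppara itself had a log2 difference of -0.21, adjusted p = 0.341.

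The clock genes split, with Arntl higher under DRF and several of its targets lower. Of 19 tested, 1 was higher and 4 were lower (26.3% called, against 6.94%), and after rescaling 1 was higher and 1 lower. Arntl, which encodes BMAL1, measured 2.47, 3.87, 2.63 and 2.502 TPM under DRF and 0.902, 1.05, 0.7404 and 1.67 TPM under NRF (log2 difference 0.89, SE 0.23, adjusted p = 0.0146), and its call ended without DRF replicate 2 or NRF replicate 3 (adjusted p up to 0.0576). Ciart, which represses CLOCK and BMAL1, measured 6.07, 1.096, 1.14 and 0.9 TPM under DRF and 5.65, 6.54, 8.79 and 3.98 TPM under NRF (log2 difference -1.34, SE 0.36, adjusted p = 0.0184). DRF replicate 1 was inside the NRF range and the other DRF libraries were at or near 1 TPM. The repressor Cry2 (-0.33, adjusted p = 0.0445), the D-box factor Hlf (-0.49, adjusted p = 0.0334) and the repressor Bhlhe41 (-0.45, adjusted p = 0.0439) were the other lower genes. All 4 lower calls ended without each of several single libraries, with adjusted p up to 0.12 for Ciart, 0.243 for Cry2, 0.174 for Hlf and 0.194 for Bhlhe41. Dbp, a D-box activator driven by the clock, measured 55.3, 10.5, 15.98 and 16.2 TPM under DRF and 43.4, 46.96, 48.8 and 24.7 TPM under NRF and did not pass (log2 difference -0.96, SE 0.42, adjusted p = 0.151). Again DRF replicate 1 had a value above every NRF library while the other 3 were below them. Per1 measured 29.99, 10.3, 12.5 and 12.5 TPM and 12.8, 20.2, 23.8 and 21.8 TPM (-0.34, adjusted p = 0.58), Per2 19.9, 14.7, 12.1 and 10.7 TPM and 22.4, 31.2, 17.98 and 15.8 TPM (-0.56, adjusted p = 0.133) and Per3 9.61, 6.28, 6.99 and 6.09 TPM and 10.6, 12.9, 10.8 and 8.99 TPM (-0.53, adjusted p = 0.0619). In 13 of the 19 genes DRF replicate 1 was nearer to the NRF mean than to the mean of the other DRF libraries, against 2, 3 and 5 genes for replicates 2, 3 and 4. Over all tested genes the same held in 51.3% for DRF replicate 1 and in 35.7%, 33.3% and 27.6% for the others, so this library lay nearer to the NRF mean in other genes too. After median-of-ratios scaling the clock counts were 12, 1, 1 and 2 and the shares over all genes 47.8%, 39.8%, 39.0% and 35.8%. With that library left out Per3, Tef and Dbp passed at adjusted p = 0.0237, 0.0231 and 0.0255. Nr1d1 (0.15, adjusted p = 0.771), Nr1d2 (-0.23, adjusted p = 0.464), Clock (0.16, adjusted p = 0.264) and Npas2 (0.27, adjusted p = 0.335) did not pass with all libraries.

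**Figure D3:**
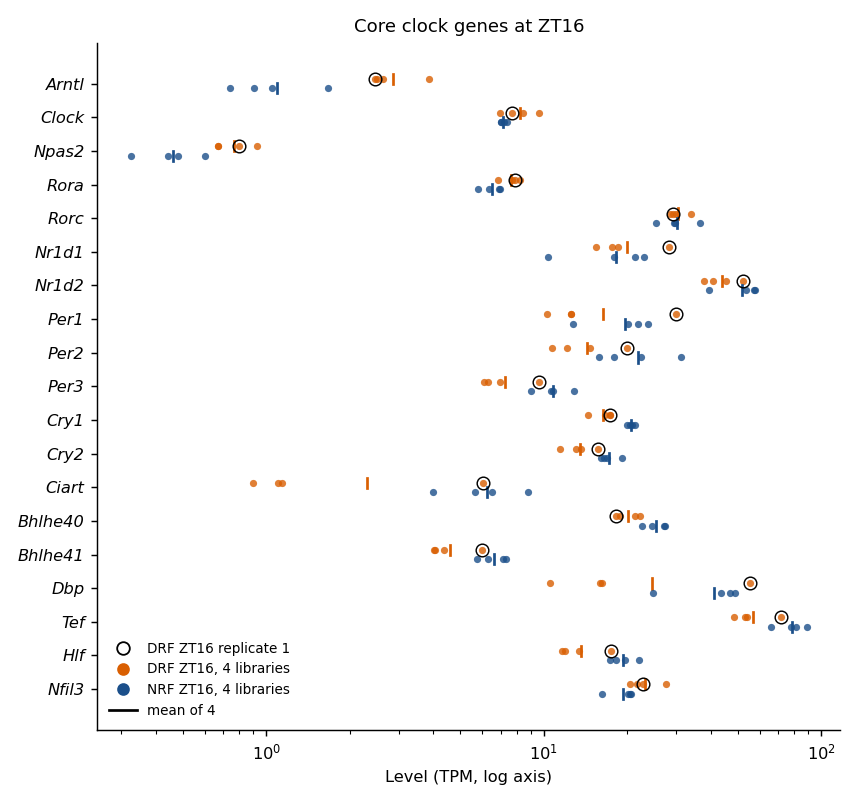
TPM of the 19 tested clock genes at ZT16 on a log axis, 1 dot per library (orange DRF, blue NRF, n = 4 each), with DRF replicate 1 ringed. The ringed dot lies among the NRF dots in Ciart and above them in Dbp, while the other 3 DRF dots of both genes lie below the NRF dots.

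Targets of the antioxidant factor NRF2 gave some of the firmest differences. The list of 17 tested genes also holds Nfe2l2, which encodes NRF2, and Keap1, the gene of its inhibitor. Of the 17, none was higher and 4 were lower with TPM (23.5%, against 6.27% of all tested genes), and after rescaling the same count was lower and 1 was higher. Gclm, the regulatory subunit of the first enzyme of glutathione synthesis, measured 9.805, 8.596, 8.69 and 7.08 TPM under DRF and 16.4, 14.5, 12.5 and 12.5 TPM under NRF (log2 difference -0.65, SE 0.09, adjusted p = 4.63e-05). Txnrd1, the cytosolic thioredoxin reductase, measured 17.7, 16.5, 16.3 and 15.6 TPM and 22.7, 22.7, 22.8 and 24.5 TPM (log2 difference -0.47, SE 0.07, adjusted p = 9.96e-05). Both were lower in every DRF library. Srxn1, which repairs oxidised peroxiredoxins, measured 17.2, 16.9, 15.5 and 15.6 TPM and 26.03, 21.95, 25.96 and 24.3 TPM (log2 difference -0.56, SE 0.09, adjusted p = 0.000367), and the quinone reductase Nqo1 measured 48.6, 39.1, 37.9 and 38.8 TPM and 55.7, 55.8, 63.6 and 64.7 TPM, with DRF replicate 1 the highest of its group (log2 difference -0.54, SE 0.10, adjusted p = 0.00179). All 4 calls held with any of the 8 libraries left out. Of 12 genes of iron handling (16.7% called, against 0.663% higher and 6.27% lower among all tested genes), Tfrc was higher and the endosomal reductase Steap3 lower (-0.34, adjusted p = 0.021).

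Among 21 ion channels and connexins 5 were called (23.8%, against 6.94% of all tested genes), 1 of them higher. The clearest was Kcnh2, which forms the channel of the rapid delayed rectifier current that ends the action potential, with 42.99, 24.1, 25.2 and 27.6 TPM under DRF and 46.98, 53.2, 47.1 and 50.4 TPM under NRF (log2 difference -0.74, SE 0.12, adjusted p = 0.000367). DRF replicate 1 was close to the NRF libraries but below all of them, and the call held with any library left out. Kcne1, a subunit of the slow delayed rectifier, measured 6.83, 6.5, 7.21 and 10.6 TPM under DRF and 4.04, 4.17, 4.32 and 5.42 TPM under NRF (log2 difference 0.66, SE 0.16, adjusted p = 0.00988), and lost its call without DRF replicate 4 (adjusted p = 0.106). The pacemaker channel Hcn4 (-0.43, adjusted p = 0.045) and the potassium channel Kcnj5 (-0.36, adjusted p = 0.0392), both enriched in atrial and pacemaker tissue, were also lower. After rescaling 2 of the list were higher and 2 lower. The summed atrial markers, given above, overlapped between groups (two-sided exact permutation p = 0.943), with the highest sum in NRF replicate 2, but on the log2 scale 5 of the 6 markers had a positive difference with a median log2 difference of 1.07, none of them called. Their part in these genes was not tested. Calcium handling genes gave 1 lower gene of 18 (5.56%, against 6.27% of all tested genes), the junctional Jph2 (-0.28, adjusted p = 0.0304), and 2 higher ones after rescaling. Of 20 genes of beta-adrenergic signalling (10% called) the cyclase Adcy9 (-0.36, adjusted p = 0.0246) and the phosphodiesterase Pde4d (-0.35, adjusted p = 0.0165) were lower, neither of which passed after rescaling, and without DRF replicate 4 the adjusted p of Pde4d was 0.0968. Of 22 sarcomere genes (9.09% called, against 0.663% higher among all tested genes) the ventricular light chain Myl2 and the filament gene Des were higher. Myl2 measured 6846, 8364, 7280.4 and 10027 TPM under DRF and 6095, 6305, 6904 and 7133 TPM under NRF (0.29, adjusted p = 0.0365), and Des 1041, 1050.0, 897 and 1027 TPM and 774, 829, 912 and 783 TPM (0.28, adjusted p = 0.0305). In both the groups overlapped. Without DRF replicate 4 the adjusted p were 0.3 and 0.124, and any of 5 libraries for Myl2 and of 6 for Des ended the call.

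Of 30 genes of ribosome biogenesis 4 were lower (13.3%, against 6.27% of all tested genes) and none higher, and 2 were lower after rescaling (2.31% of all). Ubtf, the activator of ribosomal RNA transcription, measured 31.5, 32.9, 31.6 and 28.4 TPM under DRF and 40.9, 43.2, 42.3 and 40.9 TPM under NRF (log2 difference -0.42, SE 0.08, adjusted p = 0.00193), and Polr1a, the largest subunit of RNA polymerase I, measured 7.75, 6.89, 6.53 and 5.96 TPM and 8.46, 9.17, 9.88 and 9.58 TPM (log2 difference -0.40, SE 0.09, adjusted p = 0.00401). Both groups were separate in each gene and both calls held with any library left out and after rescaling. The nucleolar genes Nolc1 (-0.35, adjusted p = 0.0302) and Nop56 (-0.26, adjusted p = 0.0442) passed with TPM alone. Of 24 initiation factors 3 were lower (12.5%), among them the helicase Eif4a1, with 76.2, 72.7, 71.6 and 67.8 TPM under DRF and 88.1, 92.8, 98.8 and 96.8 TPM under NRF (log2 difference -0.38, SE 0.07, adjusted p = 0.00179), which alone passed after rescaling. Of 27 splicing factors (7.41% called) Srsf1 (-0.44, adjusted p = 0.00393) and Hnrnpu (-0.24, adjusted p = 0.0262) were lower. Of 81 cytosolic ribosomal protein genes 78 had a positive log2 difference, against 24.9% of all tested genes, and the median was 0.17, against -0.097 for all genes, but only Rpl36 passed (0.38, adjusted p = 0.0388), and 9 did after rescaling, against 2.09% of all tested genes. These genes have many near-identical copies, so the split of their reads is uncertain. Of 98 respiratory chain genes 74 had a positive log2 difference and 6.12% were called. Among all tested genes 24.9% were positive, 0.663% were called higher and 6.27% lower. The ATP synthase genes Atp5k (0.39, adjusted p = 0.042), Atp5g1 (0.29, adjusted p = 0.039), Atp5h (0.25, adjusted p = 0.033) and Atp5c1 (0.22, adjusted p = 0.023) and Cox4i1 (0.24, adjusted p = 0.0495) were higher and the assembly factor Ndufaf4 (-0.24, adjusted p = 0.0466) was lower. After rescaling 12 were higher, against 2.09% of all tested genes, and none lower. All the ribosomal protein and respiratory chain calls with TPM ended without DRF replicate 4, at adjusted p of 0.181 to 0.302, and that library had the lowest median-of-ratios factor of the 56. None of the 13 mitochondrially encoded genes or the 77 mitochondrial ribosomal protein genes passed with TPM.

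Among stress responses, 3 of 23 heat shock chaperones were lower with TPM (13.0%, against 6.27% of all tested genes) and none after rescaling. Dnajb1, a cochaperone of HSP70, measured 16.2, 17.4, 17.9 and 16.1 TPM under DRF and 30.3, 35.1, 21.02 and 26.6 TPM under NRF (log2 difference -0.69, SE 0.21, adjusted p = 0.0403), and 7 of the 8 single libraries ended its call (adjusted p up to 0.15). The inducible HSP70 gene Hspa1b measured 4.01, 3.2, 5.37 and 4.34 TPM and 10.9, 17.6, 5.02 and 5.44 TPM, overlapping and not called (-0.90, adjusted p = 0.117), and it shares reads with the near-identical Hspa1a. No gene passed among 5 cold-inducible RNA-binding genes, 19 of the endoplasmic reticulum and 20 immediate early genes. Atf4, the factor of the amino acid response, was lower (-0.39, adjusted p = 0.0262), the only call among 18 genes of that response with TPM (5.56%). Of 20 genes of cholesterol synthesis and uptake 3 were called (15.0%, against 6.94%): the sensor partner Insig1 was higher (0.41, adjusted p = 0.0277) and the enzymes Fdft1 (-0.36, adjusted p = 0.00442) and Idi1 (-0.32, adjusted p = 0.0134) were lower. Of 24 vascular and haemostatic genes (4.17% called) the endothelin gene Edn1 was lower, with 5.51, 6.77, 7.63 and 6.92 TPM under DRF and 10.9, 14.9, 8.17 and 8.98 TPM under NRF (log2 difference -0.58, SE 0.15, adjusted p = 0.0124). Its NRF values reached widely, the call ended without NRF replicate 2 (adjusted p = 0.0961) and after rescaling it did not pass. Summed endothelial markers were 539 to 603 TPM under DRF and 595 to 746 TPM under NRF, overlapping (two-sided exact permutation p = 0.0571, adjusted 0.457), and their part in Edn1 was not tested. None of 25 extracellular matrix genes passed. Their log2 differences were negative in 24 genes, where 75.1% of all tested genes were negative, with a median of -0.29 against -0.097, and none of 20 proliferation genes passed, with a median of -0.30. After rescaling these list medians were -0.18 and -0.24, against -0.002 for all tested genes. Of 8 fibroblast markers, some of them also in the matrix list, 7 were negative. Their median was -0.16 with TPM and -0.05 after rescaling, and their part in the matrix genes was not tested.

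In the remaining lists the shares called were near or below the 6.94% of all tested genes, or rested on 2 genes. By direction, 0.663% of all tested genes were higher and 6.27% lower. Kars was higher of 20 aminoacyl-tRNA synthetase genes (5.0% called; 0.19, adjusted p = 0.0424), Dbt and Ivd were lower of 17 genes of branched-chain amino acid breakdown (11.8%; -0.28, adjusted p = 0.0314 and -0.25, adjusted p = 0.0491), Psme4 was lower of 49 proteasome genes (2.04%; -0.30, adjusted p = 0.049) and Col4a5 was lower of 28 collagens (3.57%; -0.36, adjusted p = 0.02).

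Whether the ZT16 differences go with the hour or with the feeding state was asked by setting each against the difference at ZT4, 12 h away, when the DRF mice were in their feeding phase and the NRF mice in their fast. Each group keeps its regimen between these times, while its feeding state and the hour change together. The comparison therefore describes the times and does not separate their causes. The ZT16 difference departed from the ZT4 difference in 1013 genes (7.3% of those tested), with 148 changes upward and 865 downward. After median-of-ratios scaling the split was 451 and 647, and without DRF ZT16 replicate 4 the count was 605. Angptl4, 11.5 ± 4.59 against 1.85 ± 0.5398 TPM at ZT16, measured 5.27 ± 5.98 TPM under DRF and 29.6 ± 23.99 TPM under NRF at ZT4, a change in log2 difference of 4.24, SE 0.82, adjusted p = 0.000646. Txnip measured 265 ± 142 and 447 ± 138 TPM at ZT4, the order of ZT16 turned round (2.22, SE 0.43, adjusted p = 0.000646). Pdk4 measured 298 ± 183 and 644 ± 566 TPM at ZT4, with a very wide spread (2.13, SE 0.65, adjusted p = 0.0329). Adam19 measured 10.5 ± 0.848 and 22.2 ± 5.24 TPM (2.06, SE 0.22, adjusted p = 4.34e-08) and Slc41a3 39.4 ± 7.49 and 83.3 ± 14.1 TPM (2.15, SE 0.22, adjusted p = 1.68e-08), so that the DRF means of both were below the NRF means at ZT4 and above them at ZT16. In the other direction the change was -2.02, SE 0.36, adjusted p = 0.000272 for Ppp1r3b, whose ZT4 levels were 17 ± 5.87 and 8.77 ± 0.964 TPM, and -2.57, SE 0.60, adjusted p = 0.00448 for Dbp, with 49.8 ± 46.3 and 12.1 ± 3.85 TPM. Gm45819 (-2.29, SE 0.36, adjusted p = 3.75e-05), Ciart (-2.10, SE 0.50, adjusted p = 0.00585) and Rtn4r (-1.91, SE 0.47, adjusted p = 0.00702) completed the 5 with the largest downward change. The ZT4 libraries entered the level filter and the shared estimate of spread but not the ZT16 difference itself. Of the genes called at ZT16, 76 of the 92 higher genes (82.6%) were below NRF there in DRF, against 52.3% of all tested genes. Of the 321 lower genes 258 (80.4%) were above NRF at ZT4, against 47.7% of all.

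**Figure D4:**
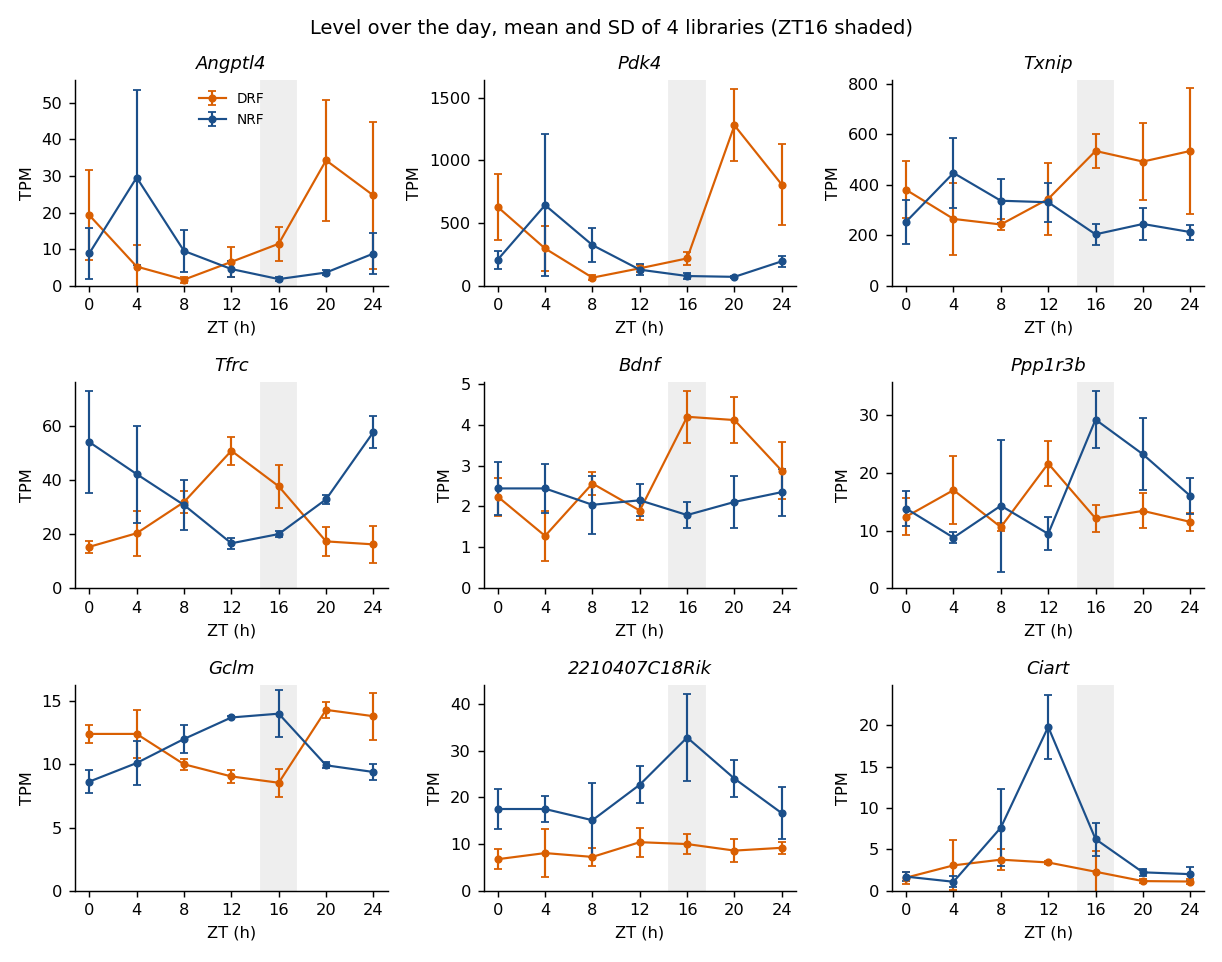
Mean TPM with SD bars (n = 4) at ZT0 to ZT24 in steps of 4 h for 9 genes, orange DRF and blue NRF, with ZT16 shaded. Angptl4, Pdk4 and Txnip are higher under NRF at ZT4 and higher under DRF at ZT16, and 2210407C18Rik is lower under DRF at each of the 7 times.

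The daily profiles behind these differences varied in form. Tfrc peaked at ZT12 under DRF (50.7 ± 5.14 TPM) and at ZT24 under NRF (57.6 ± 5.904 TPM). Pdk4 reached 1279 ± 288 TPM at ZT20 under DRF, when NRF hearts held 71.9 ± 6.099 TPM, so that ZT16 lay on its rise. Gclm was at its lowest mean under DRF at ZT16 (8.54 ± 1.12 TPM) and at its highest under NRF (14.01 ± 1.87 TPM). Bdnf was at 1.28 to 2.87 TPM under DRF outside ZT16 and ZT20, at which it measured 4.19 ± 0.637 and 4.11 ± 0.571 TPM. 2210407C18Rik had means of 6.76 to 10.4 TPM under DRF and 15.1 to 32.8 TPM under NRF over the 7 times. The ZT16 difference departed from the mean of the differences at the other 6 times in 260 genes (1.87%), 46 upward and 214 downward. This count and split were unstable: after median-of-ratios scaling 162 were upward and 210 downward, and the count was 54 without DRF replicate 4, 85 without NRF replicate 2, 107 and 128 without DRF replicates 3 and 2, 111 and 165 without NRF replicates 1 and 3, and 497 without DRF replicate 1. The largest upward departures were those of Tfrc (1.49, SE 0.28, adjusted p = 0.00303), Slc41a3 (1.38, SE 0.17, adjusted p = 1.38e-06), Adam19 (1.29, SE 0.17, adjusted p = 6.9e-06), Arntl (1.05, SE 0.25, adjusted p = 0.0176) and Kcne1 (0.98, SE 0.17, adjusted p = 0.00233). The largest downward were those of Ppp1r3b (-1.28, SE 0.28, adjusted p = 0.0098), Mir208b, a microRNA gene inside Myh7 whose reads may come from its host (-1.15, SE 0.32, adjusted p = 0.0439), 4632404M16Rik (-1.03, SE 0.29, adjusted p = 0.0476), Fv1 (-0.87, SE 0.17, adjusted p = 0.00469) and Foxo6os (-0.87, SE 0.20, adjusted p = 0.0156). The 92 higher genes as a set had medians of -0.02 at ZT0, -0.13 at ZT4, 0.01 at ZT8 and at ZT12, 0.12 at ZT20 and 0.13 at ZT24, against 0.48 at ZT16. The 321 lower genes had medians of -0.11, 0.12, -0.13, -0.10, -0.17 and -0.07 at those times, against -0.41 at ZT16. The sets were chosen at ZT16, so their size there is a description. Over all tested genes the medians at the same 6 times were -0.05, -0.007, -0.06, -0.06, -0.07 and -0.004, below 0 at each of them.

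**Figure D5:**
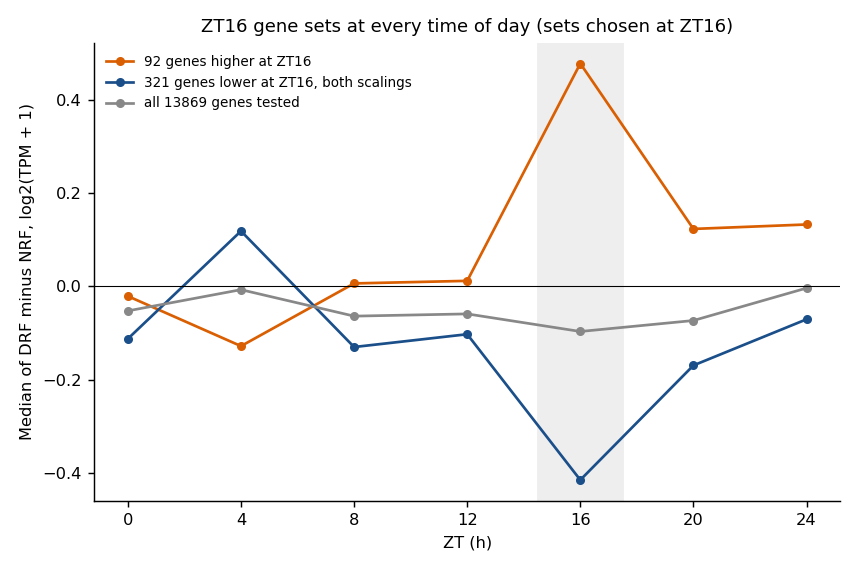
Median log2 difference DRF minus NRF at each ZT (hours, horizontal) for the 92 genes higher at ZT16 (orange), the 321 lower at ZT16 (blue) and all 13869 tested genes (grey). The sets were chosen at ZT16, and at ZT4 both medians lie on the other side of 0, at -0.13 and 0.12.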

How the data were processed

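PolyA RNA from mouse heart was sequenced as 150-base read pairs after the NEBNext Ultra protocol. Per the labels' processing notes reads were aligned to mm10 with HISAT2 2.0.5 and counted with featureCounts 1.5.0-p3, and strand use is not given in the sources used here. The authors deposited values named TPM which are on another scale: each is a library constant times a log2 of 1 plus scaled reads, divided by exon length. This was tested on the file, in which 99.9998% of 1192403 values above 0 and under 30000 reads came back as whole reads (tolerance 0.1 read). In 80 abundant genes reads were accepted at a tolerance of 0.25 read. Linear TPM were rebuilt from those reads and GENCODE vM21 exon lengths, with 835 lengths, 800 of them on chromosomes 17 to 19, searched from the values for whole reads, so they are no independent check. The test planned for deposited TPM was used on the rebuilt TPM.

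Genes averaging 1 TPM or more across the 56 libraries were tested on log2(TPM + 1), a scale that understates changes of low genes, with limma 3.58.1 in R 4.3.3: 14 group means, eBayes with trend, Benjamini-Hochberg adjusted p under 0.05 over all tested genes. Contrasts were DRF minus NRF at ZT16, that difference minus the mean difference at the other ZTs, and that difference minus the ZT4 difference. Library measures used an exact permutation test. On simulated data 189 of 200 changed genes were called at ZT16 and 7 unchanged ones. Whether the same share would be called among differences of the sizes seen in these libraries was not tested. The libraries at ZT16 held 37.2 to 53.4 M reads and no molecular identifiers, so depth covers counting error only.

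Named were the 14 genes with the largest called difference in each direction whose groups did not overlap, up to 6 called genes in each of 37 lists, all tested clock genes, and 5 genes in each direction of the other contrasts. Some genes that the rule names are not reported here. A few uncalled list members were named after their values were seen. The comparison and the lists were chosen with earlier results of these data known. Alternatives were another pseudocount, filter, scaling, variance model, the replicate number as a block and each library left out. Labels name no batch, and no 2 libraries were identical.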

Additional observations from a re-analysis of the deposited data

Results flagged for a closer look

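In 14 of 258 groups of 4 libraries looked at, 1 library lay apart from the other three by Dixon's criterion, which chance meets in about 5% of groups. The highest library stood apart in DRF replicate 1 for Ciart (6.07 TPM) and Nqo1 (48.6 TPM), in DRF replicate 2 for Arntl (3.87 TPM) and the summed adipocyte markers (221 TPM), in NRF replicate 2 for the summed atrial markers (4380 TPM) and in NRF replicate 4 for Slc41a3 (17.3 TPM), Txnrd1 (24.5 TPM) and the summed cardiomyocyte markers (43000 TPM). The lowest library stood apart in DRF replicate 4 for Slc16a1 (94.1 TPM), Hnrnpu (35.0 TPM) and Ppargc1a (33.1 TPM), in DRF replicate 3 for Des (897 TPM), in NRF replicate 3 for Nfil3 (16.2 TPM) and in NRF replicate 4 for Rtn4r (11.9 TPM).

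The difference at ZT16 departed from that at other times by limma's test of the contrast itself. Against the mean of the other 6 times it departed in 260 genes, among them Tfrc by 1.49, Slc41a3 by 1.38, Adam19 by 1.29, Arntl by 1.05, Kcne1 by 0.98, Ppp1r3b by -1.28, Mir208b by -1.15, 4632404M16Rik by -1.03, Fv1 by -0.87 and Foxo6os by -0.87 on the log2 scale. Against ZT4 it departed in 1013 genes, among them Angptl4 by 4.24, Txnip by 2.22, Slc41a3 by 2.15, Pdk4 by 2.13, Adam19 by 2.06, Dbp by -2.57, Gm45819 by -2.29, Ciart by -2.10, Ppp1r3b by -2.02 and Rtn4r by -1.91.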

How the results depend on the processing

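Of the 962 genes called at ZT16 with TPM, 9.56% were higher. The count was 611 after median-of-ratios scaling (290 higher, 321 lower), 635 with the deposited values times length (310 higher, 325 lower), and 227 to 1284 with 1 library left out. It was 78 without the 3 libraries with Bmp10 and 243 with median-of-ratios scaling and no DRF replicate 4, both chosen after seeing the data. The contrast with the other times gave 260 genes (46 higher, 214 lower), 372 after median-of-ratios scaling (162 and 210), 379 with the deposited values (180 and 199), 691 with TPM without mitochondrially encoded genes, 54 to 497 with 1 library left out, 32 without the Bmp10 libraries and 116 with median-of-ratios scaling and no DRF replicate 4. The contrast with ZT4 gave 1013 genes (148 and 865), 1098 after median-of-ratios scaling (451 and 647), 1098 with the deposited values (488 and 610), 605 to 1305 with 1 library left out and 479 without the Bmp10 libraries. The cause of these changes was not tested. With the replicate number as a block the 3 counts were 417, 108 and 663, and the ZT16 count was 403 with the block and the 8 ZT16 libraries alone. The numbers pair no animals in the labels, same-numbered libraries deviated together at r of -0.0343 to 0.0664, and not every library correlated best with its own number. Of 2955 values of named genes under the alternatives 2191 kept direction and call, 758 kept direction without the call, 6 gained a call and 0 turned. Pseudocount, filter, RPM, red-cell removal and variance model changed the ZT16 count by less than 1.5 times. Depth ranged from 37.2 to 53.4 M reads under DRF and from 37.6 to 48.5 M under NRF.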

Other observations

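No gene passed among 15 glucocorticoid-responsive genes. DRF replicate 1 was the highest of the DRF libraries in 12 of the 15 genes, and NRF replicate 2 the highest of the NRF libraries in 12. Over all tested genes these libraries were the highest of their group in 44.2% and 40.6%. After median-of-ratios scaling the counts were 11 and 8 of the 15 genes and the shares over all genes 28.7% and 25.7%. Tsc22d3, a direct glucocorticoid target, measured 107, 62.6, 71.1 and 58.4 TPM in DRF replicates 1 to 4 and 67.7, 103, 95.1 and 95.1 TPM in NRF replicates 1 to 4 (-0.29, adjusted p = 0.375). Ddit4, a stress-induced inhibitor of mTORC1, measured 190, 48.6, 59.2 and 42.1 TPM and 43.1, 76.2, 79 and 90.9 TPM (-0.01, adjusted p = 0.995).

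Among 15 genes of lipogenesis and desaturation, Elovl5 (-0.48, adjusted p = 0.00423) and Scd2 (-0.58, adjusted p = 0.029) were lower (13.3%, against 6.27% of all tested genes). After median-of-ratios scaling only Elovl5 passed, and the call of Scd2 ended without any of 4 libraries (adjusted p up to 0.134). In this list DRF replicate 2 and NRF replicate 2 were each the highest of their group in 12 genes, against 22.4% and 40.6% of all tested genes. After median-of-ratios scaling the counts were 12 and 10, against 20.8% and 25.7%. Scd1, which desaturates stearate, measured 131, 635, 103 and 136 TPM under DRF and 33.3, 174, 37.4 and 74.6 TPM under NRF (log2 difference 1.53, SE 0.67, adjusted p = 0.151), and the fatty acid synthase gene Fasn measured 27.6, 114, 20.4 and 27.7 TPM and 11.1, 44, 12.5 and 19.5 TPM (log2 difference 0.94, SE 0.47, adjusted p = 0.212). Summed adipocyte markers were 67.8, 221, 40.4 and 51.7 TPM under DRF and 33.1, 202, 36.1 and 72.2 TPM under NRF, and were thus highest in the same 2 libraries. Their part in the Scd1 and Fasn values was not tested.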
